A study of Homo sapiens with 12 samples.

Results

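NRF2 (gene NFE2L2), its inhibitor KEAP1 and 8 genes known as NRF2 targets were followed in MIA PaCa-2, a human cell line established from a carcinoma of the pancreas. The 10 genes (NFE2L2, KEAP1, HMOX1, NQO1, GCLC, GCLM, SRXN1, TXNRD1, OSGIN1 and FTH1) were taken by symbol from a table of 24528 genes. All 10 passed the filter on low counts, which left 15021 genes for testing. RNA was sequenced in 12 libraries, 3 in each of 4 groups, after delivery of short hairpin RNAs (shRNAs) against the Musashi RNA-binding proteins or of a control. The Msi1 knockdown cells carried a lentiviral Msi1 shRNA whose virus was marked with GFP. The Msi2 knockdown cells carried a lentiviral Msi2 shRNA whose virus was marked with Tomato Red. The double knockdown cells received both viruses and were sorted as double-positive. The control cells received a scrambled shRNA, and no source used here gives their tag or gate. Infection lasted 72 hours before sorting in all groups, each library was made from 200 ng of total RNA, and every group came from the same line grown in DMEM with bovine and horse serum. The labels give no second hairpin for either gene. No label says that replicates came from separate cultures, and p-values here reflect the spread among these libraries alone, which may be technical.

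NRF2 is a transcription factor that switches on genes of the oxidative and electrophile stress response. In unstressed cells KEAP1 holds NRF2 and passes it to a CUL3 ubiquitin ligase, which leads to its destruction, and reactive molecules that modify KEAP1 let NRF2 escape and enter the nucleus. There it pairs with a small MAF protein and binds the antioxidant response element in the regulatory DNA of its targets, where BACH1 can compete with it. The pathway is best known for its control at the level of the protein, so the NFE2L2 transcript is not a measure of NRF2 activity. In pancreatic carcinoma NRF2 is known for supporting redox balance and tumour growth. The measurements here are of RNA from many cells together, in which fewer cells of a type and less RNA per cell cannot be told apart.

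The targeted transcripts were low where their shRNAs had been given. MSI1 averaged 1.84 ± 0.19, 6.14 ± 0.82 and 1.71 ± 0.28 CPM in the Msi1, the Msi2 and the double knockdown, against 4.53 ± 0.40 CPM in control (SD, n = 3 each; CPM is the estimated count per 1e6 of the scaled library total). MSI2 averaged 53.98 ± 2.28, 14.97 ± 2.36 and 11.8 ± 0.62 CPM in the same knockdowns, against 82.7 ± 3.09 CPM in control, so the Msi1 knockdown cells also had less MSI2 RNA. Library totals, in units of 1e6 counts, were 26.8 to 38.9 for the Msi1 knockdown, 39.7 to 53.01 for the Msi2 knockdown, 39.9 to 56.1 for the double knockdown and 10.9 to 35.04 for control. The keratins KRT8, KRT18 and KRT19 and vimentin (VIM) were present in all libraries, while the epithelial markers EPCAM and CDH1 reached at most 0.36 and 1.01 CPM. The sum of 5 blood cell markers was at most 1.17 CPM, most of it CD14 (PTPRC was at 0 in 3 libraries and CD3E in all 12), and 5 pancreatic acinar markers together reached at most 0.25 CPM. The sum of 5 endothelial markers moved with the groups, at 27.5 to 34.5 CPM in the Msi1 knockdown, 13.1 to 13.6 in Msi2 and 20.4 to 22.9 in double knockdown cells, against 7.32 to 8.45 CPM in control. Nearly all of it was CDH5, while TEK and KDR were at 0 in 5 and 3 libraries and PECAM1 reached at most 1.01 CPM. TUBB3, the sole tested one of 5 neuronal markers, averaged 199 CPM in the Msi1, 243 in the Msi2 and 289.5 in the double knockdown, against 187 CPM in control. Of 7 fibroblast markers COL3A1 averaged 385, 369 and 292 CPM in the Msi1, the Msi2 and the double knockdown, against 226 CPM in control. COL1A2 averaged 366, 449 and 309 CPM in the same knockdowns, against 435 CPM in control, and the other 5 reached at most 1.84 CPM. The part of these marker genes in the results was not tested. Libraries of the same group differed along a common axis, called here the library trend, which held 54.1% of the within-group variance and on which long transcripts scored high (Spearman's rho = 0.41 between loading and length across genes, and genes are not independent replicates). The Msi1 knockdown libraries had trend scores of 0.09 to 1.38, the Msi2 knockdown libraries -0.34 to 1.07 and the double knockdown libraries -1.54 to -1.06, against -0.39 to 0.68 for control. The double knockdown libraries thus stood apart from all others, and results that move with the trend are given below with and without it as a term of the model. The scores were taken on levels that keep the differences between groups.

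The 10 genes covered a wide range of levels. Per kilobase of the longest annotated transcript, control cells held the most RNA from FTH1, the ferritin heavy chain that stores iron, at 1167 CPM per kb. NQO1, a quinone reductase, followed at 256 CPM per kb and TXNRD1, the cytosolic thioredoxin reductase, at 148 CPM per kb. GCLM, the modifier subunit of the enzyme that starts glutathione synthesis, stood at 74.2 CPM per kb, far above GCLC, the catalytic subunit of the same enzyme, at 5.79 CPM per kb. SRXN1, the sulfiredoxin that repairs over-oxidised peroxiredoxins, had 30.3 CPM per kb, NFE2L2 itself 28.4 and KEAP1 14.0. HMOX1, the heme oxygenase that opens the heme ring, had 7.94 CPM per kb and OSGIN1, an oxidative stress induced growth inhibitor, 3.36. With the median in place of the longest transcript length SRXN1 fell behind NFE2L2 and KEAP1, while FTH1, NQO1 and TXNRD1 stayed at the top and OSGIN1 at the bottom. The levels of SRXN1 and NFE2L2 are therefore not set in order here.

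**Figure D1:**
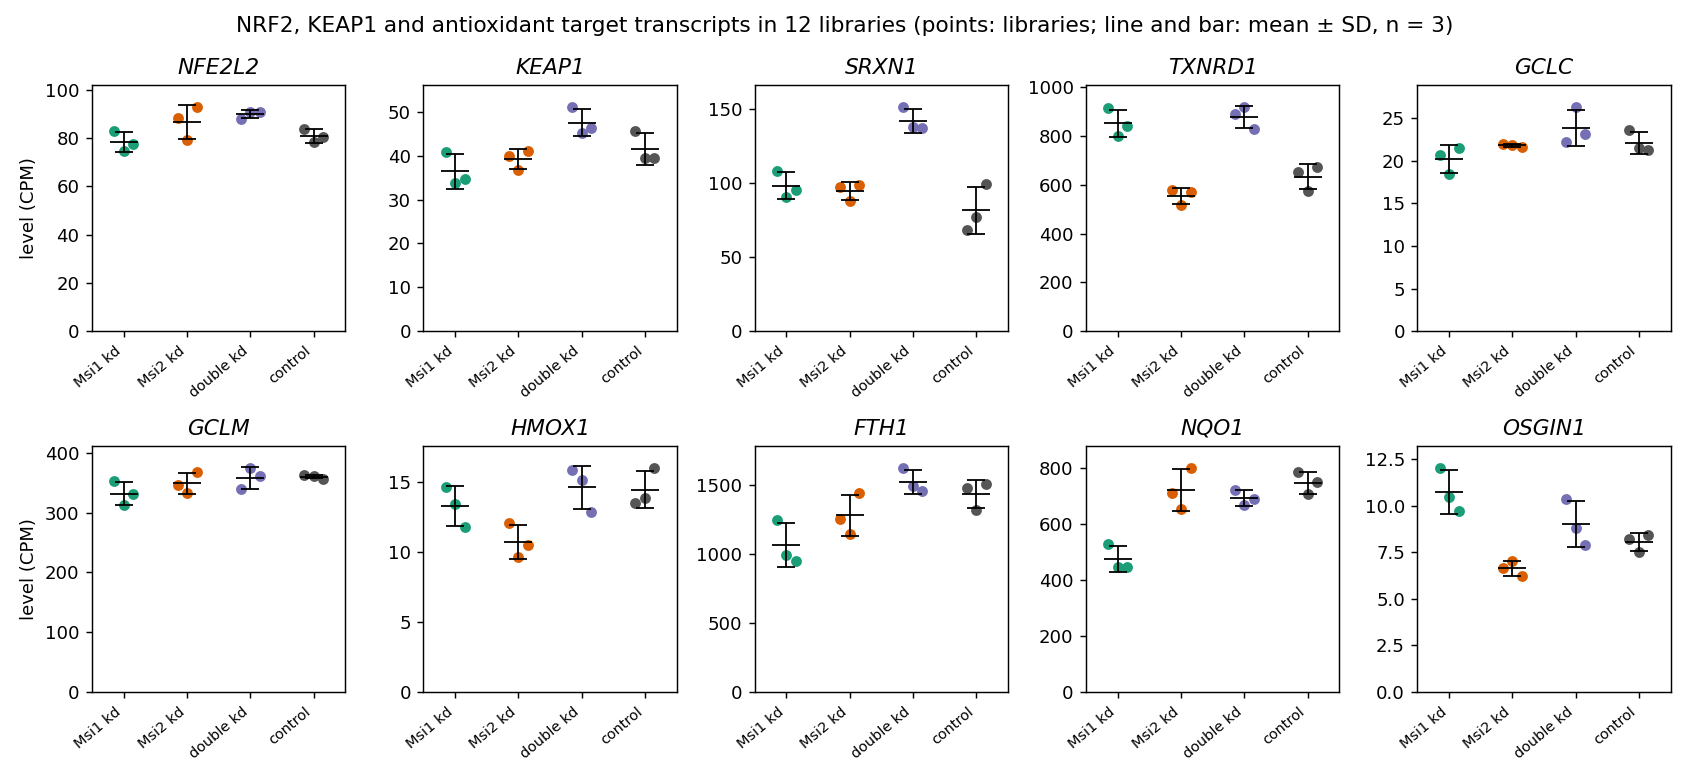
Level of each of the 10 genes in the 12 libraries, in CPM, with 1 panel a gene and 1 point a library; lines and bars mark the group means ± SD (n = 3). The double knockdown libraries stand above all others for SRXN1, and the Msi1 knockdown libraries stand below all others for NQO1. The group means of GCLM lie closest together, within 0.12 on the log2 scale.

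Promoter sequences are shown for the genes in which a short motif lay upstream of the start and no annotated transcript of the same gene overlapped the window. Transcripts of other genes were not checked against the windows. They are the 250 bases before the start of transcription, from RefSeq on GRCh38.p14, whereas the submitters' processing notes name hg19. Capitals mark the match to TGACNNNGC, the core of the antioxidant response element, in TXNRD1 (chr12:104215529-104215778, plus strand) and in GCLM (chr1:93909431-93909680, minus strand), and the match to TGACTCA, the AP-1 motif, in OSGIN1 (chr16:83952990-83953239, plus strand). Each runs 5′ to 3′ along its gene.
TXNRD1: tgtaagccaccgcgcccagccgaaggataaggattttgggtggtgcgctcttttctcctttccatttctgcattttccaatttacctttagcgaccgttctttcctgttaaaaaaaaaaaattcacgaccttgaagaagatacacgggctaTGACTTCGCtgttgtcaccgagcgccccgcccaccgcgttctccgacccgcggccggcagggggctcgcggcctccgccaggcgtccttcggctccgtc
GCLM: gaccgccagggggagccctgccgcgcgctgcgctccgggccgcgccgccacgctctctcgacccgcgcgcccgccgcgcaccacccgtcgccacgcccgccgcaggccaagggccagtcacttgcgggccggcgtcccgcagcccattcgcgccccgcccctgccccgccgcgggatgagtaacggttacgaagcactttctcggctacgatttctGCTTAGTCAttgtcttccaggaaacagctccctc
OSGIN1: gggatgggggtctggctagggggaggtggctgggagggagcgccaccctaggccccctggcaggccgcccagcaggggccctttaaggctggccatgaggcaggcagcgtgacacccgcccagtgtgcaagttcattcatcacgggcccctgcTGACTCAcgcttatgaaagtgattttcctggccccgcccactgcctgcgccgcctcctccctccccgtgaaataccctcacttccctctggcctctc

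The match in TXNRD1 began 99 bases before the start and read along the gene. The match in GCLM lay 34 bases before the start and read on the other strand. The AP-1 match in OSGIN1 began 97 bases before the start. The RefSeq table held 11 promoters of 8 of the 10 genes (HMOX1 and FTH1 had no entry), and the core motif, searched on both strands, was found in 3 of the 8 genes: TXNRD1, GCLM and KEAP1. Both KEAP1 matches, at -54 and -31 from the second listed start, lay where an annotated KEAP1 transcript overlapped the window (-125 to -1). The window of the other KEAP1 start held no match. Over the whole table the core motif occurred in 13.2% of 27305 genes. TGACTCA was found in 1 of the 8 genes and in 5.19% of all genes. The letters of the 2 motifs can overlap. A match is a stretch of letters and not a measured binding site, and well-known response elements can lie farther from the start than this window.

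NFE2L2 and KEAP1, the factor and its inhibitor, passed in no comparison with control. NFE2L2 had 82.9, 74.6 and 77.4 CPM in the Msi1 knockdown, 88.4, 79.2 and 92.8 with the Msi2 shRNA alone and 87.9, 91.1 and 90.7 in double knockdown cells, against 84.0, 78.2 and 80.6 CPM in control. The double knockdown libraries lay above all 3 control libraries, but the other knockdowns overlapped with control. Against control its log2 change was -0.05 ± 0.07 in the Msi1 knockdown (95% interval -0.19 to 0.09). It was 0.10 ± 0.07 with the Msi2 shRNA (-0.04 to 0.24) and 0.15 ± 0.07 with both (0.01 to 0.29). None of the 3 passed in edgeR, with Benjamini-Hochberg adjustment over the 15021 tested genes (adjusted p = 0.593, 0.276 and 0.0597), although with the library trend as a term NFE2L2 passed as higher in the Msi2 knockdown (0.12, adjusted p = 0.0254). KEAP1 had 40.9, 33.7 and 34.6 CPM in the Msi1 knockdown, 39.95, 36.6 and 41.2 with the Msi2 shRNA alone and 51.0, 45.2 and 46.3 in double knockdown cells, against 45.7, 39.3 and 39.5 CPM in control. Every knockdown overlapped with control for KEAP1, with the double knockdown at the high end and the Msi1 knockdown at the low end. On the log2 scale KEAP1 had differences from control of -0.20 ± 0.08, -0.09 ± 0.08 and 0.19 ± 0.08, none past the threshold (edgeR adjusted p = 0.0685, 0.459 and 0.0608). KEAP1 was higher in the double knockdown than in either single knockdown, by a log2 difference of 0.38 ± 0.08 against the Msi1 knockdown and 0.28 ± 0.08 against the Msi2 knockdown (edgeR adjusted p = 5.88e-04 and 0.00799). The second did not pass without Msi2 knockdown replicate 2 (0.0503) or double knockdown replicate 1 (0.0603). Once the library trend was a term, both differences shrank to 0.03 and 0.02 (adjusted p = 0.920 and 0.903). Against control, KEAP1 passed as lower in the Msi1 knockdown without Msi1 knockdown replicate 1 (0.00550) or control replicate 2 (0.0461).

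In the Msi1 knockdown the targets parted in 2 directions. TXNRD1, OSGIN1 and SRXN1 rose and NQO1 and FTH1 fell against control, 5 of the 10 genes, where 39.3% of all tested genes passed the same test (18.5% higher and 20.9% lower). The share is near that background, and the median log2 change of the 10 genes was -0.11, against -0.00 over all tested genes. The libraries of the 2 groups did not overlap for 5 of the 10 genes, against 47.2% of all tested genes.

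NQO1, which detoxifies quinones, had 528, 446 and 446 CPM in the Msi1 knockdown, 708, 651 and 798 with the Msi2 shRNA alone and 721, 665 and 687 in double knockdown cells, against 785, 705 and 747 CPM in control. All 3 Msi1 knockdown libraries lay below the other 9. The log2 change in the Msi1 knockdown was -0.66 ± 0.08, a level 0.635 times that of control (edgeR adjusted p = 5.04e-06). In the Msi2 knockdown it was -0.05 ± 0.08 and in the double knockdown -0.11 ± 0.08, neither past the threshold (edgeR adjusted p = 0.691 and 0.290). The single knockdowns differed from each other, with NQO1 higher in the Msi2 than in the Msi1 knockdown by a log2 difference of 0.60 ± 0.08 (edgeR adjusted p = 1.21e-05). The double knockdown was also above the Msi1 knockdown, by 0.55 ± 0.08 (edgeR adjusted p = 4.32e-05). That second difference was smaller with the library trend as a term of the edgeR model, at 0.16 (adjusted p = 0.274). NQO1 then fell in the double knockdown against control as well (-0.34, adjusted p = 8.31e-06). The trend and the double knockdown cannot be told apart in these values.

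FTH1 had its lowest mean in the Msi1 knockdown too. Its libraries had 1243, 994 and 949.9 CPM in the Msi1 knockdown, 1251, 1147 and 1440.4 with the Msi2 shRNA alone and 1620.4, 1488 and 1453 in double knockdown cells, against 1474, 1318 and 1509 CPM in control. Again the Msi1 knockdown libraries lay below all control libraries, while the other knockdowns overlapped with control. FTH1 fell in the Msi1 knockdown with a log2 change of -0.43 ± 0.10 (edgeR adjusted p = 0.00218), with -0.16 ± 0.10 in the Msi2 knockdown and 0.08 ± 0.10 in the double knockdown (adjusted p = 0.249 and 0.507). It was the gene of the 10 that moved most with the library trend, at percentile 0.54 of all loadings, so that libraries with low trend scores had more of it. With the trend as a term the fall in the Msi1 knockdown was -0.22 (adjusted p = 2.86e-04) and the value in the double knockdown turned to -0.24 (adjusted p = 8.41e-04). The table holds 1 FTH1 pseudogene, with no counts, although reads of ferritin pseudogenes outside the table could still be assigned to FTH1.

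TXNRD1, which keeps thioredoxin reduced with NADPH, rose in the Msi1 and double knockdowns. It had 912, 801 and 841 CPM in the Msi1 knockdown, 578, 516 and 569.6 with the Msi2 shRNA alone and 888, 917 and 830.1 in double knockdown cells, against 653, 575 and 671 CPM in control. Both groups with the Msi1 shRNA lay wholly above control, and the Msi2 knockdown overlapped with it at the low end. The log2 change was 0.43 ± 0.08 in the Msi1 knockdown and 0.47 ± 0.08 in the double knockdown (edgeR adjusted p = 2.31e-04 and 5.94e-05), or 1.35 and 1.39 times control. In the Msi2 knockdown it was -0.19 ± 0.08 (edgeR adjusted p = 0.0750), and it passed there without control replicate 2 (0.0236) or Msi1 knockdown replicate 1 (0.0440), with the library trend as a term (-0.15, adjusted p = 0.00481) and with the replicate number as a block (-0.19, adjusted p = 0.0415). The Msi2 knockdown was below the Msi1 knockdown by a log2 difference of -0.62 ± 0.08 (edgeR adjusted p = 4.02e-06), and the double knockdown above the Msi2 knockdown by 0.66 ± 0.08 (adjusted p = 3.99e-06). Between the double and the Msi1 knockdown the difference was 0.05 ± 0.08 (95% interval -0.12 to 0.21; edgeR adjusted p = 0.638). Given the library trend as a term, the rises were 0.56 in the Msi1 knockdown and 0.29 in the double knockdown, both past the threshold. This is the gene whose upstream window, printed above, holds a core antioxidant response element motif. GCLM, whose window holds one too, passed in none of the 7 comparisons, but without Msi1 knockdown replicate 1 it passed as higher in the double against the Msi1 knockdown. KEAP1, the other gene with this motif, passed in no comparison with control but was higher in the double than in either single knockdown.

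Of its 3 comparisons with control, OSGIN1 passed in the Msi1 knockdown. It had 12.01, 10.5 and 9.70 CPM in the Msi1 knockdown, 6.68, 7.01 and 6.20 with the Msi2 shRNA alone and 10.3, 8.78 and 7.90 in double knockdown cells, against 8.18, 7.49 and 8.45 CPM in control. The Msi1 knockdown lay above and the Msi2 knockdown below all control libraries, and the double knockdown overlapped with control. Against control the differences on the log2 scale were 0.43 ± 0.11, -0.27 ± 0.11 and 0.18 ± 0.11 (edgeR adjusted p = 0.00423, 0.0813 and 0.175). Tested directly, the Msi2 knockdown was lower than the Msi1 knockdown by a log2 difference of -0.70 ± 0.10 (edgeR adjusted p = 2.48e-05).

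SRXN1 had the widest spread of group means of the 10 genes, 0.82 on the log2 scale. It had 108, 90.8 and 95.5 CPM in the Msi1 knockdown, 97.5, 88.1 and 98.9 with the Msi2 shRNA alone and 151, 138 and 137 in double knockdown cells, against 68.3, 77.5 and 99.2 CPM in control. The double knockdown libraries lay above all others, and both single knockdowns overlapped with the control libraries, which themselves spread widely (coefficient of variation 19.4%). In the double knockdown SRXN1 rose by 0.82 ± 0.10 on the log2 scale, 1.76 times control (edgeR adjusted p = 4.59e-06). The double knockdown was also above the Msi1 knockdown by 0.53 ± 0.10 and above the Msi2 knockdown by 0.58 ± 0.10 (edgeR adjusted p = 2.94e-04 and 1.76e-04). In the single knockdowns the log2 change was 0.28 ± 0.10 with the Msi1 shRNA, past the threshold, and 0.23 ± 0.10 with the Msi2 shRNA, not past it (edgeR adjusted p = 0.0357 and 0.0968; the second is 0.00373 without control replicate 3 and 0.0428 with the library trend as a term, at a log2 change of 0.29). The call in the Msi1 knockdown was not stable when libraries were left out. Its edgeR adjusted p was 0.235 without control replicate 1 and 0.117 without control replicate 2. It was 0.160 without Msi1 knockdown replicate 1, 0.0626 without Msi1 knockdown replicate 3 and 0.0508 with no low-count filter. The log2 change there was 0.17 without control replicate 1 and 0.44 without control replicate 3 (adjusted p = 7.43e-04 for the latter). With the library trend as a term it was 0.43 (adjusted p = 0.0134). After adding the library trend, SRXN1 still rose in the double knockdown, by 0.63 (adjusted p = 0.00489), but its differences from the single knockdowns no longer passed (0.20 and 0.34, adjusted p = 0.654 and 0.151).

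HMOX1 was the single gene of the 10 that passed in the Msi2 knockdown against control, where 30.3% of all tested genes passed (16.7% higher and 13.6% lower). With the library trend as a term 4 passed there, HMOX1 with NFE2L2, SRXN1 and TXNRD1. It had 14.6, 13.4 and 11.8 CPM in the Msi1 knockdown, 12.05, 9.66 and 10.5 with the Msi2 shRNA alone and 15.9, 15.1 and 12.9 in double knockdown cells, against 13.5, 13.9 and 15.999 CPM in control. The Msi2 knockdown lay below control without overlap, and the other groups overlapped with control. HMOX1 fell by 0.41 ± 0.11 on the log2 scale in the Msi2 knockdown, to 0.752 times control (a log2 change of -0.41; edgeR adjusted p = 0.00569). The values in the other knockdowns were -0.09 ± 0.11 in the Msi1 knockdown and 0.04 ± 0.10 in the double knockdown (edgeR adjusted p = 0.512 and 0.761). HMOX1 was lower in the Msi2 than in the Msi1 knockdown (-0.32 ± 0.10, edgeR adjusted p = 0.0171; 0.0709 without Msi1 knockdown replicate 1 and 0.0601 without Msi2 knockdown replicate 2) and higher in double knockdown cells than with the Msi2 shRNA alone (0.45 ± 0.10, adjusted p = 0.00114). The median log2 change of the 10 genes in the Msi2 knockdown was -0.07, against -0.00 over all tested genes, and 2 genes (HMOX1 and OSGIN1) did not overlap, against 38.7% of all tested genes.

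GCLC and GCLM, which make up glutamate-cysteine ligase, passed in none of the comparisons with control. GCLC had 20.6, 18.4 and 21.5 CPM in the Msi1 knockdown, 21.96, 21.8 and 21.7 with the Msi2 shRNA alone and 22.2, 26.2 and 23.1 in double knockdown cells, against 23.6, 21.4 and 21.2 CPM in control. GCLM had 352, 313 and 330.4 CPM in the Msi1 knockdown, 345, 333 and 368 with the Msi2 shRNA alone and 339, 375 and 362 in double knockdown cells, against 363, 361 and 357 CPM in control. The GCLM libraries of the Msi1 knockdown lay below all control libraries by a small margin, and the other groups overlapped with control for both genes. For GCLM the 95% intervals of the log2 change against control were -0.26 to 0.02, -0.18 to 0.09 and -0.15 to 0.13 for the Msi1, the Msi2 and the double knockdown. For GCLC they were -0.31 to 0.03, -0.19 to 0.14 and -0.06 to 0.27. GCLC was higher in the double than in the Msi1 knockdown (log2 difference 0.24 ± 0.08, edgeR adjusted p = 0.0117; 0.134 without Msi1 knockdown replicate 2 and 0.130 without double knockdown replicate 2), and 0.20 with the library trend as a term (adjusted p = 0.431).

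**Figure D2:**
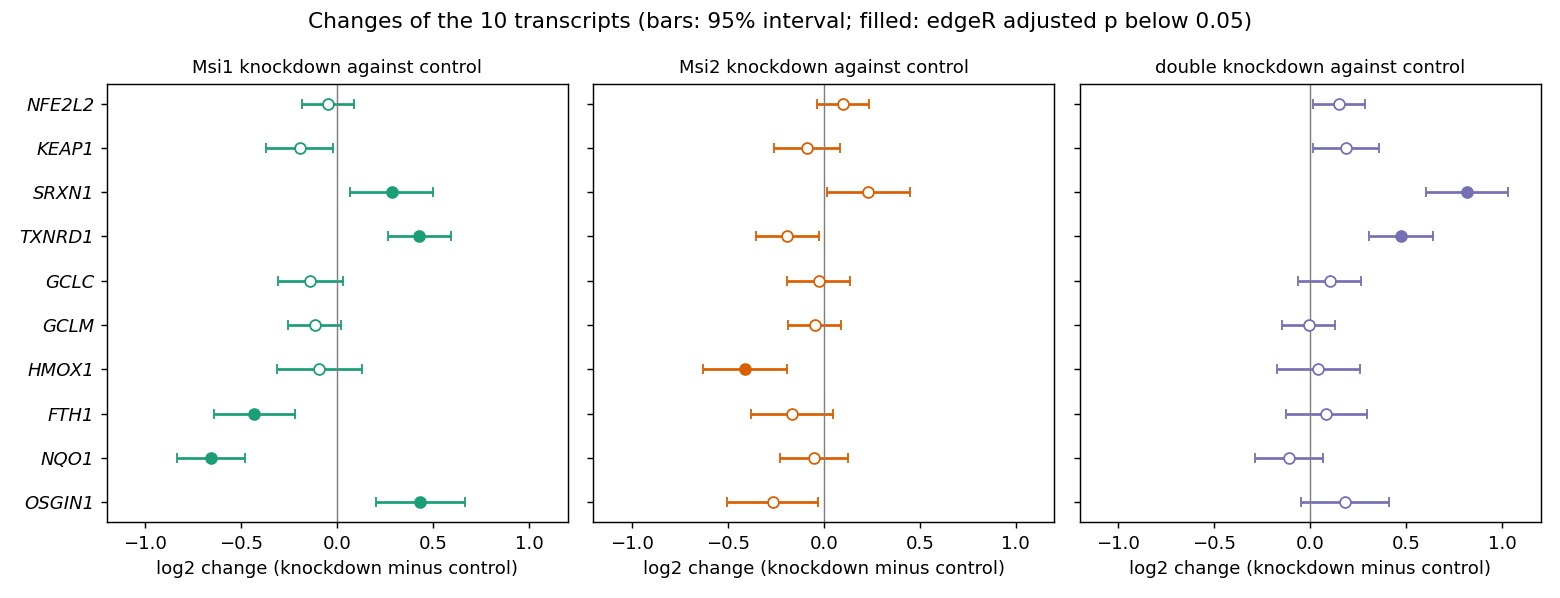
Log2 change of each gene against control in the Msi1, Msi2 and double knockdowns, with bars for the 95% interval of the edgeR fit; filled points passed the threshold. NQO1 and FTH1 lie below 0 in the Msi1 knockdown, TXNRD1 lies above 0 in the Msi1 and double knockdowns, and SRXN1 reaches 0.82 in the double knockdown.

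In the double knockdown 2 of the 10 genes passed against control, SRXN1 and TXNRD1, both higher, where 51.9% of all tested genes passed (26.6% higher and 25.3% lower). The median log2 change of the 10 genes was 0.13, against -0.02 over all tested genes. The groups did not overlap for 3 genes (NFE2L2, SRXN1 and TXNRD1), where 59.6% of all tested genes did not. NFE2L2 and KEAP1 were near the threshold: both passed without Msi1 knockdown replicate 1 (adjusted p = 0.0382 and 0.0250), NFE2L2 without Msi2 knockdown replicate 3 (0.0410) and KEAP1 without control replicate 1 (0.0255). With the library trend as a term NQO1 and FTH1 passed in the lower direction as well.

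The knockdowns were also compared with each other, and the counts of genes passing in both directions together lay near the shares over all tested genes. By direction, the calls of the double knockdown against the single knockdowns were mostly higher, where those over all tested genes were split nearly evenly. The median log2 difference of the 10 genes in the double knockdown was 0.22 against the Msi1 and 0.26 against the Msi2 knockdown (0.00 and -0.02 over all tested genes). Between the Msi2 and the Msi1 knockdown it was 0.09 (-0.00 over all tested genes). Against the Msi1 knockdown the double knockdown had 6 genes higher (NFE2L2, KEAP1, NQO1, GCLC, SRXN1 and FTH1) and OSGIN1 lower, 7 of the 10, where 56.0% of all tested genes passed (29.9% higher and 26.2% lower). Of these, FTH1 was higher by a log2 difference of 0.52 ± 0.10, NFE2L2 by 0.20 ± 0.06, and OSGIN1 had a difference of -0.25 ± 0.10 (edgeR adjusted p = 3.59e-04, 0.0133 and 0.0440). The NFE2L2 difference did not pass without Msi1 knockdown replicate 2 or 3 or double knockdown replicate 2 or 3 (0.0654 to 0.124). The OSGIN1 difference did not pass without Msi1 knockdown replicate 1 or 2 or double knockdown replicate 2 or 3 (0.0543 to 0.220). Under DESeq2 and in thinned counts it did not pass either. Against the Msi2 knockdown it had 5 genes higher (KEAP1, HMOX1, SRXN1, TXNRD1 and OSGIN1) and none lower, where 45.2% of all tested genes passed (22.7% higher and 22.5% lower). The libraries did not overlap for 6 of the 10 genes against the Msi1 knockdown and 7 against the Msi2 knockdown, where 63.6% and 55.5% of all tested genes did not. Against the Msi2 knockdown OSGIN1 had a log2 difference of 0.45 ± 0.10 (edgeR adjusted p = 0.00170). The Msi2 knockdown against the Msi1 knockdown had 2 genes higher (NQO1 and FTH1) and 3 lower (HMOX1, TXNRD1 and OSGIN1), where 41.1% of all tested genes passed (22.3% higher and 18.9% lower). The libraries did not overlap for 4 of the 10 genes, against 47.6% of all tested genes. FTH1 had a difference of 0.27 ± 0.10 there (edgeR adjusted p = 0.0410), a call lost in 8 of the 12 fits that left out a library (0.0606 to 0.249). That call was also lost with other size factors, the filter of at least 10 CPM, the compared groups alone and thinned counts.

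The calls of the double knockdown against the single knockdowns moved with the library trend. With the trend as a term, 1 of the 10 genes passed against the Msi1 knockdown (TXNRD1, now lower, -0.26, adjusted p = 0.0455) and 2 against the Msi2 knockdown (TXNRD1 higher by 0.44, adjusted p = 8.09e-06, and NQO1 lower, -0.34, adjusted p = 1.77e-04). Over all tested genes the same term left 718 calls of 8419 and 2697 of 6792. The trend scores of the double knockdown do not overlap with those of the other groups, so the trend and the double knockdown cannot be told apart in these comparisons.

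**Figure D3:**
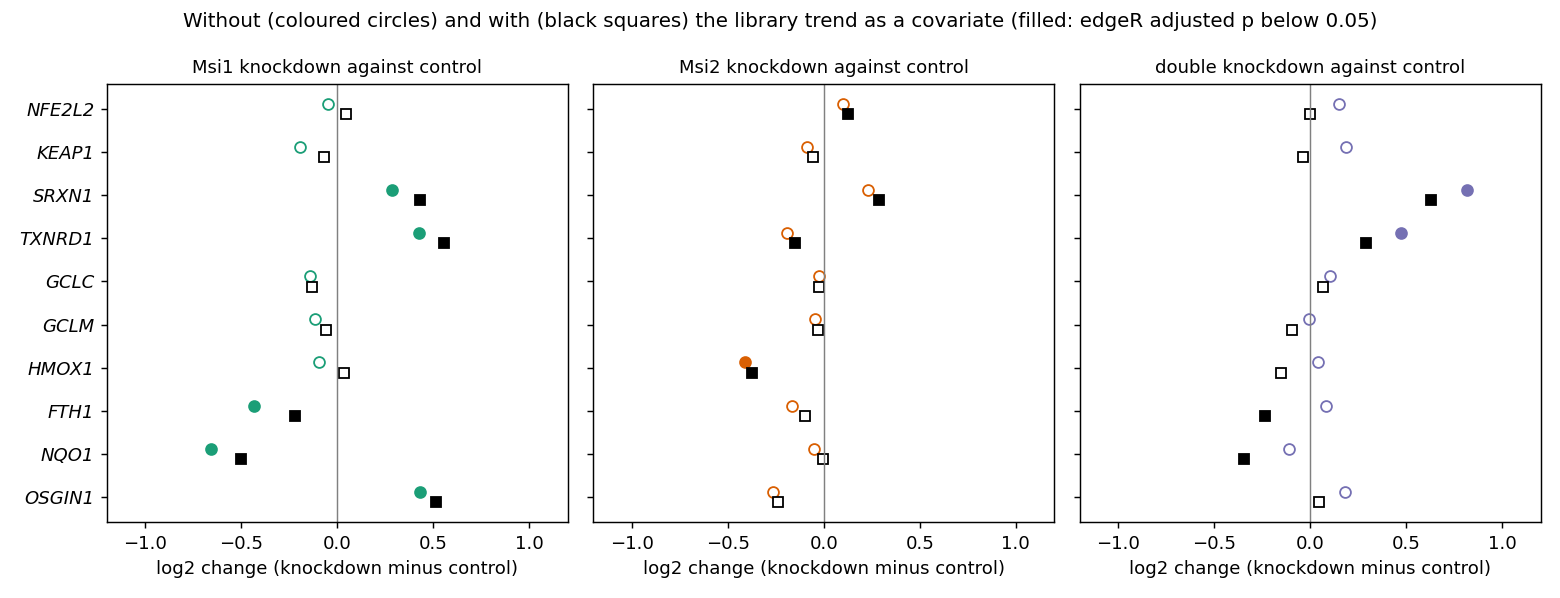
Log2 change of each gene without and with the library trend as a term of the model, for the Msi1, Msi2 and double knockdowns against control. TXNRD1 and SRXN1 stay above 0 in the Msi1 and double knockdowns under both models, while FTH1 in the double knockdown moves from 0.08 without to -0.24 with the term.

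Whether the double knockdown equals the sum of its parts was tested by taking both single knockdowns' log2 changes off that of the double knockdown. For 4 of the 10 genes the value was above 0 and passed, where 40.3% of all tested genes passed (21.3% above 0 and 19.1% below). It was 0.68 ± 0.14 for FTH1, 0.60 ± 0.12 for NQO1, 0.55 ± 0.15 for HMOX1 and 0.47 ± 0.11 for KEAP1 (edgeR adjusted p = 0.00144, 9.21e-04, 0.00643 and 0.00371). In each of these the single knockdowns summed to a lower level than the double knockdown showed. For NQO1, for example, the changes of -0.66 and -0.05 in the single knockdowns stood against -0.11 in the double knockdown. The SRXN1 value was 0.30 ± 0.14 and the TXNRD1 value 0.24 ± 0.11 (edgeR adjusted p = 0.1002 and 0.0962; 0.0271 for SRXN1 without control replicate 1, and 0.0277 and 0.0421 for TXNRD1 without Msi1 knockdown replicate 1 and control replicate 2), and OSGIN1 had 0.02 ± 0.15 (95% interval -0.30 to 0.33). TXNRD1 also passed under DESeq2 (0.24, adjusted p = 0.0462). GCLC had 0.27 ± 0.11 (edgeR adjusted p = 0.0575). It passed without Msi1 knockdown replicate 1 (0.0443) or double knockdown replicate 1 (0.0383). The median over the 10 genes was 0.29, against 0.01 over all tested genes. Once the library trend was a term, none of the 10 passed (FTH1 0.08 and NQO1 0.16, adjusted p = 0.734 and 0.409), and 592 of all tested genes did, against 6058 without it. Its part in the result cannot be told apart from that of the double knockdown.

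**Figure D4:**
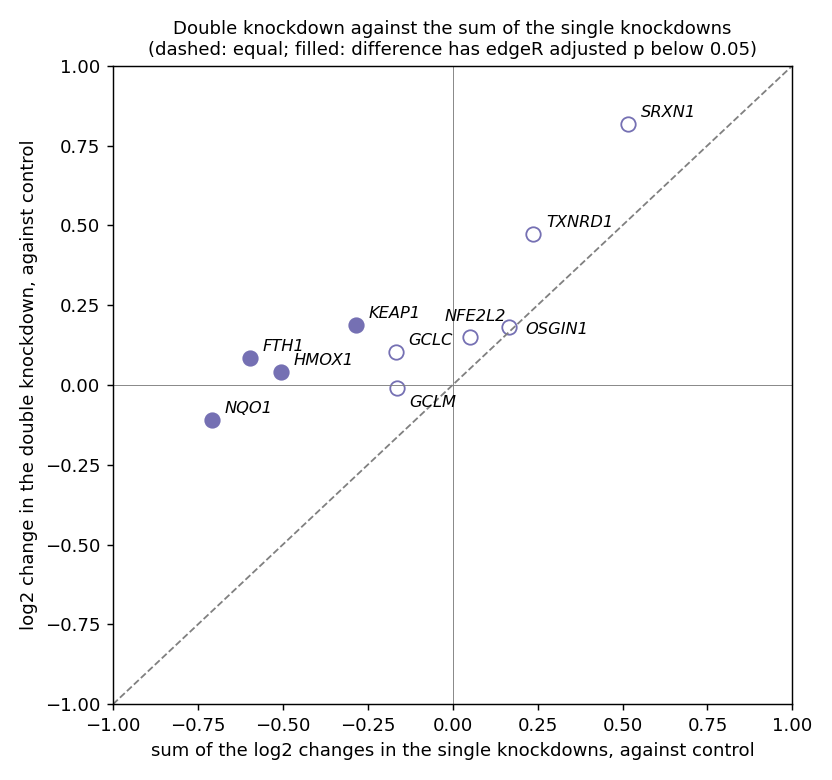
Log2 change in the double knockdown set against both single knockdown changes added together, all relative to control, 1 point a gene, with the line of equality. FTH1, NQO1, HMOX1 and KEAP1 lie above the line by 0.68, 0.60, 0.55 and 0.47, and OSGIN1 lies close to it.

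The genes around NRF2 were read from 7 lists that hold none of the 10 genes, in which 148 of 165 entries could be tested. Of 20 tested NRF2 regulators, 5 rose and 3 fell in the Msi1 knockdown, 3 rose and 2 fell in the Msi2 knockdown, and 7 rose and 3 fell in the double knockdown. Over all tested genes 39.3%, 30.3% and 51.9% passed in these comparisons, so the counts are near the background. The falls numbered 5, 1 and 6 in the Msi1 knockdown without Msi1 knockdown replicate 1, Msi1 knockdown replicate 3 and control replicate 2. In the Msi2 knockdown none fell without control replicate 1, and 1 fell without control replicate 3 or Msi2 knockdown replicate 1 or 2. Given the library trend as a term, 5 rose in the Msi2 knockdown and 4 in the double knockdown, and 4 rose in the double knockdown without its replicate 2. MAFF, a small MAF partner of NRF2, averaged 28.7 ± 2.51, 32.6 ± 1.67 and 38.0 ± 2.84 CPM in the Msi1, the Msi2 and the double knockdown, against 17.7 ± 0.48 CPM in control (SD, n = 3 each). It rose in all 3, by 0.70, 0.88 and 1.105 on the log2 scale (edgeR adjusted p = 1.07e-06, 1.29e-07 and 2.51e-09), and kept passing under all 20 alternatives tried. AMER1, a WNT pathway protein that can also bind KEAP1, rose by 0.64, 0.63 and 0.64. MAFG, another small MAF, changed by 0.00, -0.01 and 0.16, the last past the threshold (edgeR adjusted p = 0.0337) and lost under 10 of the 20 alternatives. SQSTM1, the autophagy adaptor that binds KEAP1, had -0.16, -0.03 and -0.11, none past the threshold. BACH1, the competitor of NRF2, is listed at 0 in all 12 libraries, as is SOD2, the mitochondrial superoxide dismutase that most cells use, so a listing at 0 is not read as absence.

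Of 18 tested genes that supply NADPH, 1 rose and 9 fell in the Msi1 knockdown, where 18.5% of all tested genes were higher and 20.9% lower. In the Msi2 knockdown 4 rose and 4 fell (16.7% and 13.6% of all tested genes). In the double knockdown 10 rose and 1 fell (26.6% and 25.3% of all tested genes), and 4 and 3 with the library trend as a term. The list medians were -0.21, 0.06 and 0.18 on the log2 scale, against -0.00, -0.00 and -0.02 over all tested genes. Compared directly, 13 of the 18 were higher and none lower in the double than in the Msi1 knockdown, where 29.9% and 26.2% of all tested genes passed in those directions. This direct count was not repeated with the library trend as a term, under which most calls over all tested genes were lost in that comparison. ME1, malic enzyme, averaged 46.2 ± 4.97, 40.8 ± 1.82 and 53.9 ± 0.79 CPM in the Msi1, the Msi2 and the double knockdown, against 36.0 ± 1.22 CPM in control, and rose in the Msi1 and double knockdowns (0.36 and 0.58, edgeR adjusted p = 5.46e-04 and 2.12e-06). PGD, an oxidative enzyme of the pentose phosphate pathway, fell in both single knockdowns (-0.45 and -0.47, edgeR adjusted p = 6.66e-05 and 7.14e-05). RPIA, a later isomerase of the pathway, rose in the double knockdown by 0.63, and NADK, which makes NADP from NAD, fell in all 3 (-0.27, -0.33 and -0.39). With the trend as a term 2 were higher in the Msi1 knockdown. In the double knockdown 6 rose and 2 fell without control replicate 2. The Msi2 falls numbered 2 without control replicate 1 or 3 or Msi2 knockdown replicate 1 or 2, and the rises 2 without control replicate 2 or Msi2 knockdown replicate 3.

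Of 18 tested thioredoxin and peroxiredoxin genes, 3 rose and 9 fell in the Msi1 knockdown, none rose and 8 fell in the Msi2 knockdown, and 8 rose and 4 fell in the double knockdown. The shares of all tested genes were 18.5% higher and 20.9% lower in the Msi1 knockdown, 16.7% and 13.6% in the Msi2 knockdown and 26.6% and 25.3% in the double knockdown. SESN3 and MSRB3, a sestrin and a methionine sulfoxide reductase, fell most steeply, by log2 changes of -2.29, -1.60 and -2.24 for SESN3 and -1.56, -0.93 and -1.74 for MSRB3 in the Msi1, Msi2 and double knockdowns. SESN3 averaged 1.60 ± 0.12, 2.56 ± 0.12 and 1.65 ± 0.25 CPM in them, against 7.72 ± 1.83 CPM in control, so it was a low transcript. TXNIP, which binds and inhibits thioredoxin, fell in all 3 (-0.43, -0.41 and -0.66). PRDX4, the peroxiredoxin of the endoplasmic reticulum, rose in the Msi1 and double knockdowns (0.76 and 0.44) and had 0.11 in the Msi2 knockdown. TXN, the substrate of TXNRD1, had 0.06 and 0.05 in the single knockdowns and rose in the double knockdown by 0.48 (edgeR adjusted p = 4.17e-05). PRDX1 rose in the double knockdown by 0.23 (edgeR adjusted p = 0.0321), a call lost under 9 of the 20 alternatives and turned to -0.03 with the library trend as a term. That term changed the list's count in the double knockdown to 4 higher and 7 lower, and the rises to 5 in the Msi1 and 2 in the Msi2 knockdown. Without control replicate 1 the Msi2 count was 0 higher and 3 lower, and without double knockdown replicate 1 the rises in the double knockdown numbered 5.

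Of 32 tested glutathione genes, 8 rose and 8 fell in the Msi1 knockdown, 4 rose and 7 fell in the Msi2 knockdown, and 14 rose and 7 fell in the double knockdown. Of all tested genes 18.5% rose and 20.9% fell in the Msi1 knockdown, 16.7% and 13.6% in the Msi2 knockdown and 26.6% and 25.3% in the double knockdown. SLC7A11, the cystine carrier that feeds glutathione synthesis, averaged 42.6 ± 5.47, 29.8 ± 2.58 and 23.2 ± 2.74 CPM in the Msi1, the Msi2 and the double knockdown, against 28.9 ± 2.47 CPM in control. It rose in the Msi1 knockdown (0.56, edgeR adjusted p = 2.59e-04) and fell in the double knockdown (-0.32, adjusted p = 0.0146). The fall was lost with the library trend as a term (-0.05, adjusted p = 0.742), without double knockdown replicate 1, without control replicate 2 and in thinned counts. MGST1, a membrane-bound glutathione transferase, rose in all 3 (0.50, 0.29 and 0.47). CHAC2, a glutathione-degrading enzyme, rose in the Msi1 and double knockdowns (0.32 and 0.59), and CBS, an enzyme on the route to cysteine, fell by 0.53 in the double knockdown. GSTK1, the kappa glutathione transferase, fell there too (-0.40). After adding the library trend, 6 of the list rose and 6 fell in the double knockdown. The rises there numbered 8 without double knockdown replicate 1 and 9 without control replicate 2. In the Msi1 knockdown 4 fell without control replicate 1 or Msi1 knockdown replicate 2, 3 without Msi1 knockdown replicate 3 and 5 without control replicate 3. The Msi2 rises numbered 2 without Msi2 knockdown replicate 1 or control replicate 3, and the falls 4 without Msi2 knockdown replicate 1 or control replicate 1.

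Of 19 tested iron and heme genes, 2 rose and 5 fell in the Msi1 knockdown, 8 rose and 2 fell in the Msi2 knockdown, and 7 rose and 3 fell in the double knockdown. Set beside them are shares of all tested genes of 18.5% higher and 20.9% lower in the Msi1 knockdown, 16.7% and 13.6% in the Msi2 knockdown and 26.6% and 25.3% in the double knockdown. In the Msi1 knockdown 4 rose without Msi1 knockdown replicate 1 or given the library trend, and 2 fell without Msi1 knockdown replicate 2 or 3 or control replicate 1 or 3. The Msi2 rises numbered 5 without Msi2 knockdown replicate 1 or 3 or control replicate 1 or 2, and 4 without control replicate 3. In the double knockdown 4 rose given the library trend. TFRC, the transferrin receptor, averaged 999 ± 97.9, 909 ± 54.5 and 868 ± 24.7 CPM in the Msi1, the Msi2 and the double knockdown, against 568 ± 38.3 CPM in control. It rose in all 3, by 0.81, 0.68 and 0.61 (edgeR adjusted p = 1.88e-07, 4.23e-06 and 4.97e-06). FTL, the ferritin light chain, fell in the Msi1 knockdown as FTH1 did (-0.47, edgeR adjusted p = 0.00100) and had -0.03 and 0.02 in the other knockdowns. ALAS1, the first enzyme of heme synthesis, rose in the Msi2 and double knockdowns (0.51 and 0.56), and HMOX1, which breaks heme down, fell in the first of these. FLVCR1, a heme exporter, fell in the same groups (-0.39 and -0.56), and SLC48A1, a heme carrier of lysosomes, rose in the double knockdown (0.44).

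Of 31 tested detoxification and efflux genes, 6 rose and 7 fell in the Msi1 knockdown, 6 rose and 5 fell in the Msi2 knockdown, and 8 rose and 9 fell in the double knockdown. These counts are near the background, since 39.3%, 30.3% and 51.9% of all tested genes passed in the same comparisons. In the Msi2 knockdown 3 rose without control replicate 1 and 10 given the library trend. Its falls numbered 2 without control replicate 1 or Msi2 knockdown replicate 1 or 2, and 3 without control replicate 3 or double knockdown replicate 3. AKR1C1, an aldo-keto reductase, averaged 58.8 ± 2.30, 116 ± 6.99 and 117 ± 7.69 CPM in the Msi1, the Msi2 and the double knockdown, against 58.8 ± 1.61 CPM in control. It rose in the Msi2 and double knockdowns (0.98 and 1.00, edgeR adjusted p = 2.99e-09 and 8.48e-10), although AKR1C1 shares sequence with close family copies and its reads could have been split among them. NQO2, a relative of NQO1, rose in the same groups (0.43 and 0.34, edgeR adjusted p = 1.41e-05 and 6.34e-05) and had 0.00 in the Msi1 knockdown. CYP1B1, a cytochrome P450, rose in the Msi1 and double knockdowns (0.64 and 0.49), and UGDH, which makes the sugar for glucuronidation, in the double knockdown (0.47). Of 10 genes of superoxide and hydrogen peroxide, 1 rose and 3 fell in the Msi1 knockdown, 1 rose and 1 fell in the Msi2 knockdown, and 3 rose and 3 fell in the double knockdown, against the same shares of all tested genes. Given the library trend 3 rose in the Msi1 knockdown and 1 fell in the double knockdown, and without Msi2 knockdown replicate 2 the falls in the Msi2 knockdown numbered 2. CAT, catalase, fell in all 3 (-0.63, -0.45 and -0.45). CCS, the copper chaperone of superoxide dismutase, fell in the Msi1 knockdown (-0.38), and CYBA, a subunit of NADPH oxidase, rose in the single knockdowns (0.42 and 0.35).

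**Figure D5:**
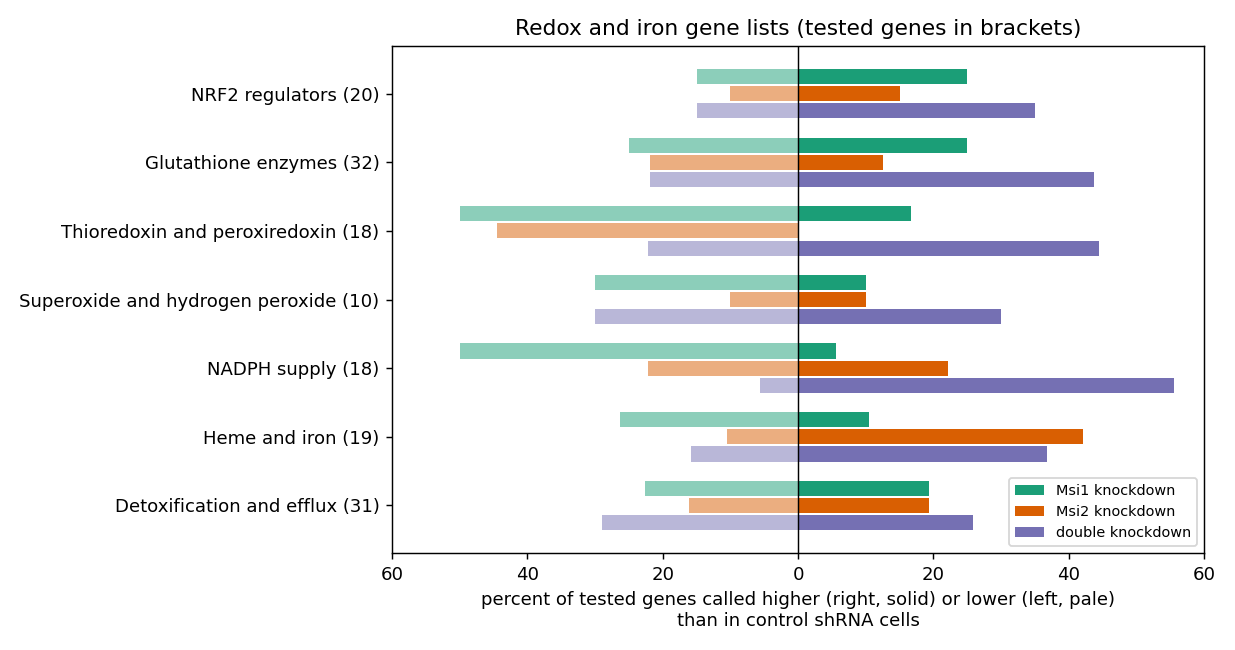
Percent of the tested genes of each of the 7 lists that were called higher (right) or lower (left) in the Msi1, Msi2 and double knockdowns than in control, with the number tested in brackets. The NADPH bars stand for 9 falls of 18 genes in the Msi1 knockdown and 10 rises in the double knockdown.

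The genes with the patterns most like NFE2L2 and SRXN1 over the 12 libraries were sought among 9431 genes of at least 10 CPM, by the root mean square difference of log2 levels centred on each gene's mean. For NFE2L2 they were NRD1 (0.033), YME1L1 (0.036) and NANP (0.036). For SRXN1 they were LYAR (0.085), PNP (0.096) and FOSL1 (0.10). LYAR averaged 47.5, 48.2 and 70.0 CPM in the Msi1, the Msi2 and the double knockdown, against 39.6 CPM in control. The group means of NFE2L2 spanned 0.20 on the log2 scale and those of SRXN1 0.82. A gene that varies little lies close to others that vary little by this measure, so the values of NFE2L2 and SRXN1 are not compared. These are descriptions of likeness over libraries that share their groups and depths.

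Several of the 10 genes overlap other annotated genes, and no source used here says whether the libraries kept strand. AGPS and BEST1 lie on the opposite strand of NFE2L2 and FTH1, and shorter annotated transcripts overlap NFE2L2, NQO1, GCLC, SRXN1 and OSGIN1. The part of these in the counts was not tested.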

How the data were processed

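RNA of sorted MIA PaCa-2 cells was sequenced in 12 libraries. The authors deposited estimated counts per gene as whole numbers, with totals that differ between libraries. The submitters' processing notes name CASAVA 1.4, hg19 and kallisto 0.42.1, a tool that shares ambiguous reads out by a likelihood model. Their roles, the transcript set and the summing to genes are not stated. All 12 columns were used, and groups came from the sample titles.

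Tests were run in R 4.3.3 with edgeR 4.0.16 (filterByExpr with a minimum count of 10, TMM scaling, 1 model of 4 group means over all 12 libraries with 8 residual degrees of freedom, robust quasi-likelihood, two-sided). P-values were adjusted by the Benjamini-Hochberg method over 15021 tested genes, at a threshold of 0.05. An exact permutation test of 3 libraries against 3 cannot go below 0.1. SE is the log2 change over the square root of its F statistic. No 2 libraries of a group agreed within sampling noise (chi-square per degree of freedom 3.83 to 36.2), so none was counted as a duplicate. The library trend was built from the first principal component of deviations from group means, over genes above 3 log2 CPM with a prior count of 2. That component gave each gene's weight. The scores applied these weights to levels centred on each gene's mean over all 12 libraries, so they also hold differences between groups. The trend was measured on the same counts that were then tested, so as a term it can take up part of a knockdown's change. Transcript lengths are from GENCODE. The scripts were tested on simulated data.

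The 10 genes, the lists and the comparisons were chosen with earlier results of these data known. From each list up to 4 genes with the smallest p over the comparisons with control are named, together with SLC7A11, FTL, TXN, PRDX1, BACH1, MAFG and SQSTM1 whatever their values; SOD2 was named after its values were seen. Some genes that these rules name are not reported here. Alternatives were DESeq2 1.42.0, other size factors, other low-count filters, the compared groups alone, the replicate number as a block, thinned counts, the trend as a term, and each library left out. Replicate numbers come from the sample titles. Deviations of same-numbered libraries from their group means had r of 0.18, 0.68 and 0.41 between the Msi2 knockdown and control, so for that comparison the blocked value is given where it changes a call; no other 2 groups had r above 0.1 in all 3 pairs.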

Additional observations from a re-analysis of the deposited data

Results flagged for a closer look

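The double knockdown differed from the sum of the single knockdowns, by the test of that difference in edgeR, for 4 of the 10 genes, where 40.3% of all tested genes passed the same test. The excess of the double knockdown's log2 change over both single changes added together was 0.68 for FTH1 (adjusted p = 0.00144), 0.60 for NQO1 (9.21e-04), 0.55 for HMOX1 (0.00643) and 0.47 for KEAP1 (0.00371). The double knockdown libraries also stood apart on the library trend, with scores of -1.54 to -1.06, against -0.39 to 1.38 in the other 9 libraries. With the trend as a term the values were 0.08, 0.16, 0.19 and 0.09 for the same genes (adjusted p = 0.734, 0.409, 0.687 and 0.799), and the part of the trend and that of the double knockdown cannot be told apart.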

How the results depend on the processing

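Of 1383 values of single genes under the alternatives, 1249 kept their direction and their side of the threshold, 42 came to pass, 49 no longer passed and 43 changed sign. No alternative moved the median of all tested genes by over 0.05. With the library trend as a term the members passing were 4 for the Msi2 and 4 for the double knockdown against control, 1 for the double against the Msi1 knockdown (718 genes over all), 2 for the double against the Msi2 knockdown (2697 genes) and 0 for non-additivity (592 genes). The values that changed sign were, against control, NFE2L2 0.045 and HMOX1 0.036 in the Msi1 knockdown and NFE2L2 -4.7e-04, KEAP1 -0.036, HMOX1 -0.15 and FTH1 -0.24 in the double knockdown. In the double against the Msi1 knockdown they were NFE2L2 -0.046, HMOX1 -0.19, GCLM -0.036, TXNRD1 -0.26 and FTH1 -0.016, and in the double against the Msi2 knockdown NFE2L2 -0.13, GCLM -0.068 and FTH1 -0.14. For non-additivity they were NFE2L2 -0.17, GCLM -0.0062, SRXN1 -0.092, TXNRD1 -0.12 and OSGIN1 -0.23.

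Of the 10 genes, 2 passed in the Msi2 knockdown against control under DESeq2, the filter of at least 10 CPM, the replicate block and thinned counts, with TXNRD1 added as lower. In the double knockdown against control 4 passed with the compared groups alone and with the replicate block, NFE2L2 and KEAP1 joining. The filter of at least 10 CPM, under which OSGIN1 is not tested, gave 3 for the Msi2 and 4 for the double against the Msi1 knockdown. Of the genes still tested, FTH1 no longer passed in the first of these, and NFE2L2 and GCLC no longer passed in the second. In thinned counts GCLC did not pass in the second either. FTH1 passed as higher in the double against the Msi2 knockdown under DESeq2, other size factors, the compared groups alone and thinned counts. Sign changes elsewhere were GCLC 0.015 in the Msi2 knockdown and HMOX1 -0.025 in the double knockdown (thinned, against control), KEAP1 -0.017 between the Msi2 and Msi1 knockdowns (thinned), HMOX1 -0.017 in the double knockdown and TXNRD1 -0.031 between the double and Msi1 knockdowns (at least 10 CPM), and OSGIN1 -0.012 for non-additivity (replicate block). The cause of these shifts was not tested.

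Leaving out each library in turn, members passing were 1 to 2 in the Msi2 and 2 to 4 in the double knockdown against control and 4 to 7 in the double against the Msi1 knockdown. All genes passing in the Msi2 knockdown were 3013 (without control replicate 1) to 4940. Values that crossed 0 ran from -0.13 to 0.0095 (NQO1) and -0.066 to 0.021 (GCLC) in the Msi2 knockdown, -0.019 to 0.11 (HMOX1) and -0.055 to 0.035 (GCLM) in the double knockdown, -0.12 to 0.029 (SRXN1) between the Msi2 and Msi1 knockdowns, -0.015 to 0.10 (TXNRD1) between the double and Msi1 knockdowns, -0.021 to 0.10 (NFE2L2), -0.0032 to 0.080 (GCLM) and -0.13 to 0.026 (NQO1) between the double and Msi2 knockdowns, and -0.098 to 0.11 (OSGIN1) for non-additivity.

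Same-numbered libraries varied together in all 3 pairs for the Msi2 knockdown and control, but not for any other 2 groups (r of -0.54 to 0.70 over 18 pairs, 10 above 0.1, and 7 of 12 libraries closest to their own number). With 3 libraries a group, these correlations cannot show whether the numbers pair the samples of those other comparisons. With the replicate block, KEAP1 came to pass in the Msi1 knockdown (-0.19, adjusted p = 0.0176), NFE2L2 and KEAP1 in the double knockdown (0.15 and 0.19; 0.0380 and 0.0139), NFE2L2 in the Msi2 against the Msi1 knockdown (0.15; 0.0465) and FTH1 in the double against the Msi2 knockdown (0.25; 0.0240), and no call of the 10 genes was lost. With 3 libraries a group, changes of the size seen for NFE2L2 and KEAP1 lie near what these tests can call. Control replicate 3, the smallest library, held 10.9 counts in units of 1e6, and HMOX1 and OSGIN1 were the lowest of the 10 genes in CPM. The compared groups alone were not run for non-additivity.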
